A study of Mus musculus with 15 samples.

Results

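The genes described here carry out the urea cycle and ammonia handling in the liver. With earlier results of these data known, they were chosen by name, by a list of 10 genes that uses no measured value. They are Cps1, Otc, Ass1, Asl and Arg1, which encode the enzymes of the cycle, Nags, which makes the activator of CPS1, Slc25a15, the mitochondrial ornithine carrier, Glul, the glutamine synthetase, Gls2, the liver glutaminase, and Oat, the ornithine aminotransferase. Of these 10 genes, 8 were measured, among 19938 genes in all. Ass1 has no value here because its 2 transcript clusters also carry the symbol Gm5424, and Gls2 is not listed in the annotation used here.

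RNA from the liver of male C57BL/6J mice was measured on GeneChip Mouse Gene 1.0 ST arrays, which combine the probes along a gene into 1 log2 signal for each transcript cluster. There were 15 arrays, with 3 in each of the 5 groups. The control was a basal diet at 38w. The other mice received the Ath+HF diet, an atherogenic and high-fat diet that serves as a model of steatohepatitis, alone or with 3% branched-chain amino acids (Ath+HF+BCAA), and were examined at 38w or 68w. All diets started at 8w after weaning, which makes 30 weeks of feeding by 38w and 60 weeks by 68w. Array medians ranged from 6.91 to 7.16, and precision is limited by having 3 arrays in a group. Nothing in the sources used here ties an array to a mouse of its own, and the p-values therefore reflect only how much these arrays vary, in part perhaps for technical reasons. A comparison of 68w with 38w holds age, feeding time and any batch together. Since every basal array is of 38w, a comparison of a 68w group with basal holds the diet as well, and these cannot be told apart.

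Ammonia released from amino acids is detoxified in the liver along successive routes. Periportal hepatocytes feed it into the urea cycle, which starts in the mitochondria with CPS1 and OTC and ends in the cytosol, where arginase splits arginine into urea and ornithine. Pericentral hepatocytes take up the ammonia that escapes and fix it in glutamine, and the same cells express OAT, which removes ornithine. Hepatocytes are the main site of the complete cycle, so the level of these RNAs is used as a readout of hepatocyte function.

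The deposited log2 values were compared in 1 limma fit over all 15 arrays. A gene is called higher or lower at a Benjamini-Hochberg adjusted p under 0.05 over all 19938 genes. The signals of different probes cannot be set against each other, so each gene is compared only with itself. The hepatocyte character of the samples was clear, with the mean of 9 hepatocyte markers (such as Alb and Apoa1) between 13.42 and 13.58 in every array.

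Markers of cell types other than hepatocytes differed between the 68w labels, and each direction at 68w rests on these labels. The mean of 13 macrophage markers lay between 8.77 and 8.85 in the basal arrays and between 9.88 and 10.30 in the 38w arrays of both Ath+HF diets. It lay between 10.54 and 10.85 in the arrays bearing the label Ath+HF+BCAA 68w, but between 8.20 and 8.35 in those labelled Ath+HF 68w, below the basal arrays. The mean of 8 stellate cell and fibroblast markers was likewise between 9.04 and 9.11 with the label Ath+HF+BCAA 68w and between 7.82 and 7.98 with the label Ath+HF 68w. If the labels of these 2 groups were exchanged, every difference between them would change its sign. Neutrophil markers (6 genes) were at 8.11 in replicate 2 of Ath+HF+BCAA 68w against 6.36 and 6.49 in the other arrays of that group. The part of these markers in the results below was not tested. In whole liver, fewer hepatocytes and less RNA per hepatocyte cannot be told apart.

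**Figure D1:**
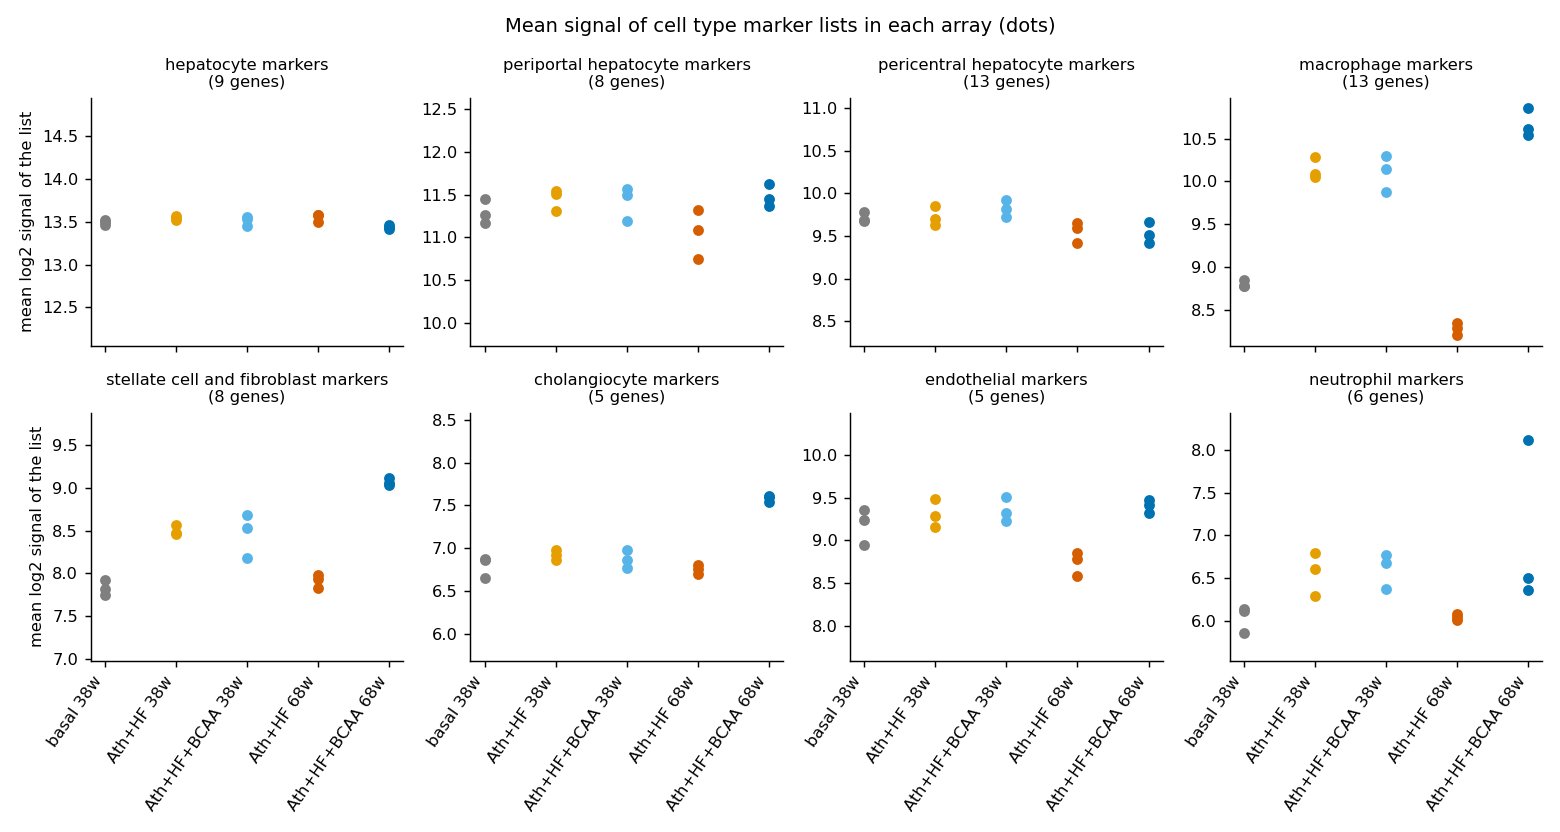
Mean log2 signal of each marker list (vertical axis) in each array (dots) of the 5 groups (horizontal axis), with the same length of axis in all panels. Hepatocyte markers stayed between 13.42 and 13.58, while macrophage markers ranged from 8.20 to 8.35 in the arrays bearing the label Ath+HF 68w and from 10.54 to 10.85 in those labelled Ath+HF+BCAA 68w.

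The promoters of Oat, Glul and Nags are shown as those of the measured genes whose windows held a match to a motif searched. The RefSeq promoter table (GRCm38.p6) holds 6 of the 10 genes and 5 of the 8 measured ones, in 7 windows. Each sequence covers the 250 bases before the transcription start. Capitals mark matches, on either strand, to the NF-Y motif CCAAT, the TCF/LEF motif CTTTGA or the glucocorticoid receptor motif ACANNNTGT.
Oat (chr7:132576399-132576648, minus strand): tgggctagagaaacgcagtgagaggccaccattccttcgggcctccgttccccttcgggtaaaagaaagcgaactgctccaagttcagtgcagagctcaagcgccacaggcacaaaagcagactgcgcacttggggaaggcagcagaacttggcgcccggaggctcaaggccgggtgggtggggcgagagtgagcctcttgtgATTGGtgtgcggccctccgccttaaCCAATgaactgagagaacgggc
Glul (chr1:153899679-153899928, plus strand): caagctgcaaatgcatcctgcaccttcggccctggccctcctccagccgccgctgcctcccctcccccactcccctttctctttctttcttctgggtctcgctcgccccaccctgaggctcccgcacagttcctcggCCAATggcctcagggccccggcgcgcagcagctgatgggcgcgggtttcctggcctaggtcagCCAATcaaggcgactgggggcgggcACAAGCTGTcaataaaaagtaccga
Nags (chr11:102145263-102145512, plus strand): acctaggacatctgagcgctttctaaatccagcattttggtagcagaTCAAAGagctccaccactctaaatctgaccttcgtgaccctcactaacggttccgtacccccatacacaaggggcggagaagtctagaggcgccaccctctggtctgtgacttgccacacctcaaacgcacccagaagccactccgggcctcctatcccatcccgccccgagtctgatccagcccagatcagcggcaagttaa
The CCAAT box, which binds the trimeric factor NF-Y, was found 2 times in the Oat window, at -47 to -43 in reverse (ATTGG) and at -22 to -18. It was found 2 times in the Glul window, at -113 to -109 and at -50 to -46. Among all 32851 promoter windows of this length, 33.9% held at least 1 CCAAT. The Glul window also held 1 match to the glucocorticoid receptor motif at -25 to -17 (5.84% of all windows), and the Nags window held 1 TCF/LEF match at -203 to -198 (13.8% of all windows). The windows of Otc and Slc25a15 held none of the 6 motifs searched, which also were TTGCNNAA (C/EBP, 9.56% of all windows), CAAAGTCCA (HNF4, 0.38%) and TGACGTCA (CRE, 1.55%). No motif of one kind overlapped another in the 3 windows shown.

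At 38w, Glul was called higher than basal in the arrays with BCAA, and no other call was made among the 8 genes against basal. In the Ath+HF 38w arrays, 0 of the 8 genes were called against basal (limma), where 4.23% of all genes were called, and 1 of the 8 had an unadjusted p under 0.05. The median log2 difference of the 8 genes was 0.08, against 0.00 over all genes. In the Ath+HF+BCAA 38w arrays 1 of 8 was called, Glul, in the higher direction, where 5.49% of all genes were called and 3.67% called higher, and the median log2 difference of the 8 genes was 0.03 against -0.01 over all genes. Both comparisons use the same basal arrays.

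Glul encodes glutamine synthetase, which joins ammonia to glutamate in pericentral hepatocytes. Its log2 signals were 12.16, 12.23 and 12.15 in the basal arrays, 12.64, 12.36 and 12.57 in the Ath+HF 38w arrays and 12.53, 12.56 and 12.62 in the Ath+HF+BCAA 38w arrays. All 6 arrays of the Ath+HF diets at 38w lay above the 3 basal arrays. The log2 difference from basal was 0.39 with BCAA (standard error 0.10, limma adjusted p = 0.0402) and 0.34 without BCAA (standard error 0.10, adjusted p = 0.0819), and only the former passed the threshold. The call is close to the threshold. With array medians set equal the log2 difference with BCAA was 0.33 (limma adjusted p = 0.0780), and it passed in 7 of the 15 fits that left out 1 array. A second transcript cluster of Glul gave log2 differences of 0.48 with BCAA (limma adjusted p = 0.0468) and 0.46 without (adjusted p = 0.0630).

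The remaining 7 genes were not called at 38w. Cps1, which commits ammonia to the cycle, had log2 signals of 13.25, 13.20 and 13.16 in the basal arrays and 13.32, 13.42 and 13.36 in the Ath+HF 38w arrays. The Ath+HF 38w arrays were above all basal arrays, but the log2 difference of 0.17 had an interval from -0.06 to 0.40 (limma adjusted p = 0.459). With BCAA the values of Cps1 at 38w were 13.37, 13.43 and 13.28, again above basal, at a log2 difference of 0.16 (95% interval -0.07 to 0.39). For the other 6 genes the arrays overlapped with basal in both diets, and the log2 differences lay between -0.20 (Oat) and 0.15 (Otc) without BCAA and between -0.09 (Asl) and 0.07 (Otc) with it. Groups that did not overlap were frequent, at 21.0% of all genes without BCAA and 20.9% with BCAA.

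**Figure D2:**
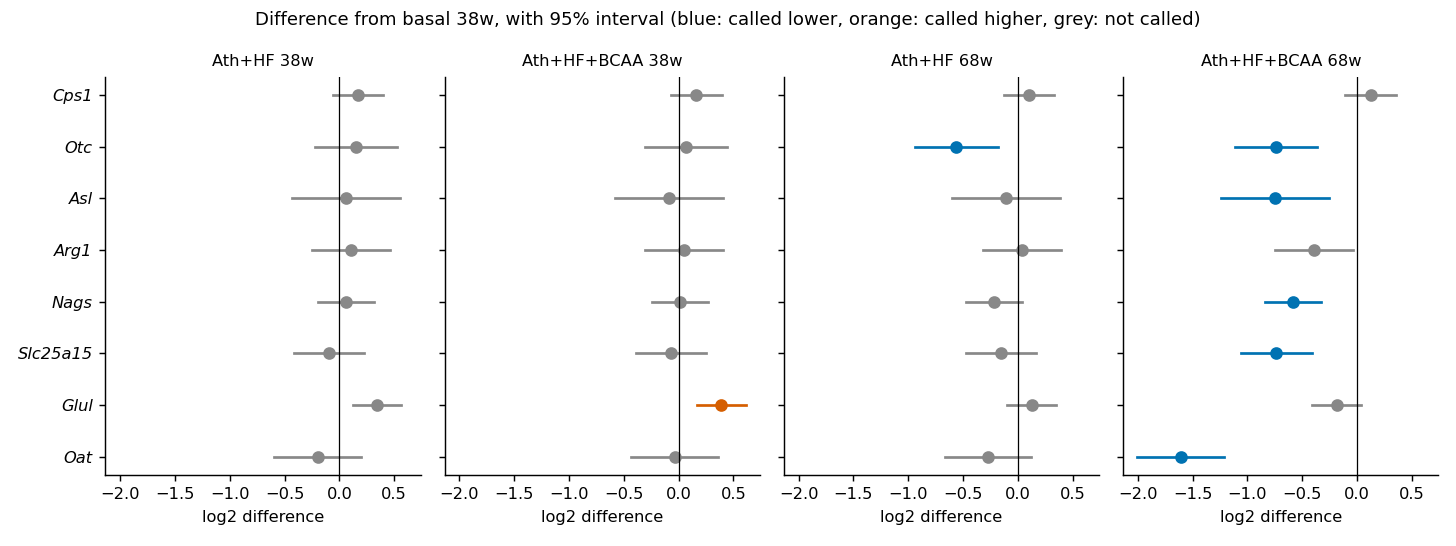
Log2 difference of each of the 8 measured genes (vertical axis) from the basal 38w arrays, with 95% confidence intervals from limma, in the 4 other groups. Only Glul was called higher (0.39, Ath+HF+BCAA 38w), Otc was called lower in both 68w groups (-0.56 and -0.74), and Oat fell by 1.61 in the arrays bearing the label Ath+HF+BCAA 68w, while Cps1 was not called in any group.

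Otc was the gene of the cycle that was called lower than basal in both 68w groups. In the arrays bearing the label Ath+HF 68w, 1 of the 8 genes, Otc, was called against basal 38w, where 38.1% of all genes were called in either direction (19.1% lower). It was also the only 1 of 8 called against Ath+HF 38w, where 37.6% of all genes were called (20.0% lower). The second cluster of Glul, which is not counted here, was lower in that comparison (-0.60, limma adjusted p = 0.00262). The arrays of 3 of the 8 genes were lower than basal without overlap (50.1% of all genes in either direction), and those of 2 were lower than Ath+HF 38w (52.1%). The median log2 differences of the 8 genes were -0.13 and -0.12, against 0.05 over all genes in both comparisons. With array medians set equal, 22.9% of all genes instead of 19.1% were lower than basal, and 13.3% instead of 19.0% were higher.

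Otc encodes ornithine transcarbamylase, which makes citrulline in the mitochondria. Its log2 signals were 11.81, 11.93 and 11.73 in the basal arrays and 11.98, 12.10 and 11.84 in the Ath+HF 38w arrays. In the arrays bearing the label Ath+HF 68w they were 11.61, 11.42 and 10.76. All 3 of these were below every 38w array, and replicate 3 was far below the others. The log2 difference was -0.56 against basal (standard error 0.18, limma adjusted p = 0.0211) and -0.71 against Ath+HF 38w (standard error 0.18, adjusted p = 0.00582). Without replicate 3 of Ath+HF 68w, the log2 difference from basal was -0.31 (limma adjusted p = 0.109), and without replicate 2 of basal it was -0.51 (adjusted p = 0.0640), so that call was lost without either array, whereas the call against Ath+HF 38w passed in all 15 fits that left out 1 array. With the label Ath+HF+BCAA 68w the signals of Otc were 11.003, 10.972 and 11.289, all below the 38w arrays, and -0.74 from basal on the log2 scale (standard error 0.18, limma adjusted p = 0.00297).

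**Figure D3:**
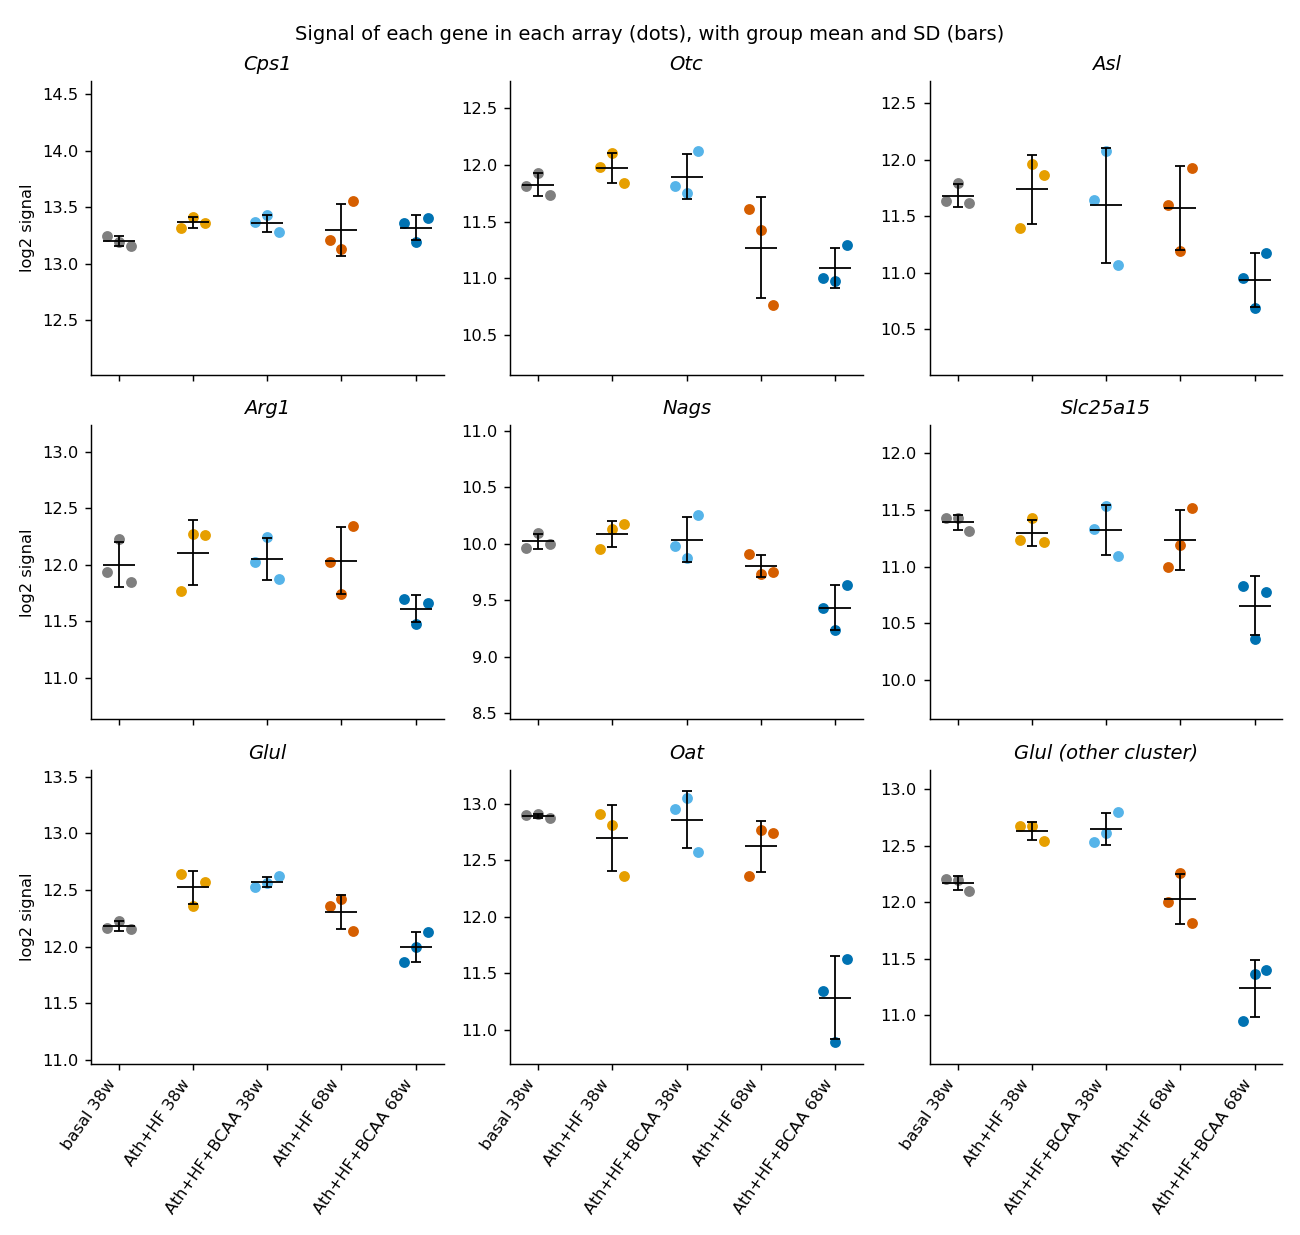
Log2 signal (vertical axis, of the same length in every panel) of the 8 measured genes and of the other cluster of Glul in each array (dots), with the group mean and SD (bars, n = 3), in the 5 groups. Oat lies between 10.89 and 11.62 in the arrays bearing the label Ath+HF+BCAA 68w and at 12.36 or above elsewhere, while the groups of Cps1 lie close together.

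In the arrays bearing the label Ath+HF+BCAA 68w, 5 of the 8 genes were called lower than basal, and Arg1, Glul and Cps1 were not called. For Glul this holds only for the cluster used here, since its second cluster was lower (-0.93, limma adjusted p = 3.63e-05). The genes called were Oat, Asl, Otc, Slc25a15 and Nags, and 0 were higher, where 21.8% of all genes were called lower and 44.6% in either direction. The arrays of 7 of the 8 genes were lower than basal without overlap, and 56.2% of all genes did not overlap in either direction. The median log2 difference of the 8 genes was -0.66, against 0.01 over all genes. Against Ath+HF+BCAA 38w, 7 of the 8 were called lower, where 18.3% of all genes were called lower and 38.8% in either direction, with a median of -0.63 against 0.03 over all genes, and 6 did not overlap, against 52.5% of all genes in either direction. The share of genes called depends on the scaling. With array medians set equal the median of all genes moved by more than 0.1, from 0.01 to -0.20 against basal, and 38.2% of all genes were then lower and 13.3% higher, instead of 21.8% and 22.9%. With that scaling 7 of the 8 genes were lower than basal, Arg1 and Glul being added, and with quantile normalization 4, Asl being lost.

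Oat, which turns ornithine into glutamate semialdehyde, fell furthest. Its log2 signals were 12.90, 12.91 and 12.88 in the basal arrays and 11.34, 10.89 and 11.62 in the arrays bearing the label Ath+HF+BCAA 68w. In the arrays bearing the label Ath+HF 68w they were 12.36, 12.77 and 12.74. At 38w they were 12.91, 12.82 and 12.36 on Ath+HF and 12.95, 13.05 and 12.57 on Ath+HF+BCAA. The 3 arrays bearing the label Ath+HF+BCAA 68w were below all 12 other arrays. The log2 difference was -1.61 from basal (standard error 0.19, limma adjusted p = 4.71e-06), a 3.05-fold lower signal, and -1.57 from Ath+HF+BCAA 38w (standard error 0.19, adjusted p = 1.27e-05). It was called in all 24 alternative settings of both comparisons.

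Slc25a15 carries ornithine into the mitochondria, where OTC and OAT use it. Its log2 signals were 11.43, 11.43 and 11.32 in the basal arrays, 11.33, 11.53 and 11.09 in the Ath+HF+BCAA 38w arrays and 10.83, 10.36 and 10.78 with the label Ath+HF+BCAA 68w. All arrays of the last group were below those of the other groups. The log2 difference from basal was -0.74 (standard error 0.15, limma adjusted p = 9.83e-04), and it was called in all 24 alternative settings. Nags makes N-acetylglutamate, without which CPS1 is inactive. Its log2 signals were 9.965, 10.097 and 9.998 in the basal arrays and 9.43, 9.24 and 9.63 with the label Ath+HF+BCAA 68w, again below every other array. The log2 difference from basal was -0.59 (standard error 0.12, limma adjusted p = 9.18e-04), called in all 24 alternative settings.

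Asl splits argininosuccinate into arginine and fumarate, and Arg1 releases urea from that arginine. The log2 signals of Asl were 11.64, 11.80 and 11.62 in the basal arrays and 10.95, 10.69 and 11.17 with the label Ath+HF+BCAA 68w. In the Ath+HF+BCAA 38w arrays they were 11.64, 12.08 and 11.07, a wide spread that overlapped with 68w. The log2 difference of Asl from basal was -0.75 (standard error 0.23, limma adjusted p = 0.0157). It lost the call with quantile normalization (-0.56, adjusted p = 0.0649) and without replicate 2 of Ath+HF+BCAA 68w (-0.62, adjusted p = 0.0743). For Arg1 the log2 signals were 11.94, 12.23 and 11.85 in the basal arrays and 11.70, 11.47 and 11.66 with the label Ath+HF+BCAA 68w, which were the lower ones. Its log2 difference from basal was -0.39 (standard error 0.17), which did not pass (limma adjusted p = 0.0697), and that from Ath+HF+BCAA 38w, -0.44, was just past the threshold (adjusted p = 0.0491). The latter call held in 12 of 24 alternative settings and in 6 of the 15 fits that left out 1 array, and with quantile normalization the log2 difference was -0.24 (limma adjusted p = 0.318).

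Glul was measured by 2 transcript clusters that disagreed in size at 68w. In the cluster used here, which was the brighter one, the log2 signals were 11.86, 12.00 and 12.13 with the label Ath+HF+BCAA 68w and 12.36, 12.42 and 12.14 with the label Ath+HF 68w. In the other cluster they were 10.95, 11.37 and 11.40, and 12.00, 12.26 and 11.82, respectively, against 12.21, 12.20 and 12.10 in the basal arrays. In both clusters the arrays bearing the label Ath+HF+BCAA 68w were below all others. The log2 difference from basal was -0.19 in the brighter cluster (standard error 0.10, limma adjusted p = 0.161) and -0.93 in the other (standard error 0.13, adjusted p = 3.63e-05). The log2 difference from Ath+HF+BCAA 38w passed in both, at -0.58 (limma adjusted p = 4.87e-04) and -1.41 (adjusted p = 1.68e-06). Whether a cluster also takes up signal from a related sequence is not given in the annotation used here. Which of the 2 clusters measures Glul alone is therefore not known, and its call against basal depends on that choice.

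Cps1 was not called against basal in any group. Its log2 signals were 13.36, 13.20 and 13.41 with the label Ath+HF+BCAA 68w and 13.21, 13.13 and 13.56 with the label Ath+HF 68w, both overlapping with the basal arrays. The log2 difference of Cps1 from basal was 0.12 with the label Ath+HF+BCAA 68w (95% interval -0.11 to 0.35, limma adjusted p = 0.380) and 0.10 with the label Ath+HF 68w (95% interval -0.13 to 0.33, adjusted p = 0.472). It was the only 1 of the 8 genes for which basal was the lowest group by its mean, and for each of the other 7 the lowest group was Ath+HF+BCAA 68w.

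At 38w, arrays with and without BCAA did not differ in these genes beyond their spread. Of the 8 genes 0 were called, and of all genes 0% (0 of 19938) were called by limma, with 1528 genes, none of them among the 8, at an unadjusted p under 0.05. All 8 genes overlapped between the 2 groups, whereas 11.1% of all genes did not. The log2 differences lay between -0.14 (Asl, 95% interval -0.63 to 0.35) and 0.16 (Oat, 95% interval -0.23 to 0.56). These intervals do not exclude changes of that size, and the tightest was that of Glul, with a log2 difference of 0.05 and an interval from -0.17 to 0.27.

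At 68w, 5 of the 8 genes were called lower with the label Ath+HF+BCAA than with the label Ath+HF, and 0 were called higher. Of all genes 16.4% were called lower and 36.2% in either direction. The arrays of 6 of the 8 did not overlap, all in the lower direction, and 58.7% of all genes did not overlap in either direction. The median log2 difference of the 8 genes was -0.40, against -0.09 over all genes. With array medians set equal it was -0.54 against -0.23, with 36.9% of all genes lower and 14.9% higher, instead of 16.4% and 19.8%. With quantile normalization it was -0.33 against -0.07, and 3 genes were called.

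Oat was 2.52-fold lower, at a log2 difference of -1.34 (standard error 0.19, limma adjusted p = 3.79e-05). This was called in all 24 alternative settings, with values from -1.50 to -1.14. Slc25a15 was lower by a log2 difference of -0.58 (standard error 0.15, limma adjusted p = 0.00723), which passed in all 15 fits that left out 1 array and in 23 of 24 alternative settings. The exception was the methods' analysis of variance, with a Bonferroni p of 0.0554. The signals of both genes were separate in the 2 groups.

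The other 3 calls held in fewer of the 24 alternative settings, with 14 for Asl, 18 for Glul and 20 for Nags. Without replicate 1 of Ath+HF 68w, or without replicate 1 or 2 of Ath+HF+BCAA 68w, the number of genes called was 2 of 8, and over all single arrays left out it ran from 2 to 6. Asl had a log2 difference of -0.63 (standard error 0.23, limma adjusted p = 0.0431), which became -0.45 (adjusted p = 0.186) without replicate 3 of Ath+HF 68w. For Nags it was -0.37 (standard error 0.12, limma adjusted p = 0.0264), and -0.27 (adjusted p = 0.137) without replicate 2 of Ath+HF+BCAA 68w. Without that array Asl (limma adjusted p = 0.162) and Glul (adjusted p = 0.0719) lost the call too. Neutrophil markers were high in it, and their part was not tested. The log2 difference of Glul was -0.31 (standard error 0.10, limma adjusted p = 0.0291), and -0.14 (adjusted p = 0.321) with quantile normalization, while its other cluster gave -0.79 (adjusted p = 2.28e-04). Arg1 was not called, at a log2 difference of -0.42 (95% interval -0.78 to -0.07, limma adjusted p = 0.0586). Otc, at -0.18 (95% interval -0.55 to 0.20, limma adjusted p = 0.437), and Cps1, at 0.02 (95% interval -0.21 to 0.25, adjusted p = 0.893), overlapped between the groups.

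Whether the difference between the diets changed with age was tested by the interaction term. Oat was the only 1 of the 8 genes called, where 20.6% of all genes were called and 7.67% were called lower, with a log2 value of -1.50 (standard error 0.26, limma adjusted p = 7.11e-04). It was called in all 23 alternative settings that could be fitted. With array medians set equal, 4 of the 8 were called, the others being Slc25a15 (-0.77, limma adjusted p = 0.0150), Glul (-0.52, adjusted p = 0.0188) and Nags (-0.48, adjusted p = 0.0488). Slc25a15 had a value of -0.61 (limma adjusted p = 0.0579) and Glul of -0.36 (adjusted p = 0.10, but 0.00594 with a log2 value of -0.81 in its other cluster). The remaining 5 genes had values between -0.49 (Asl) and 0.03 (Cps1) and were not called.

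**Figure D4:**
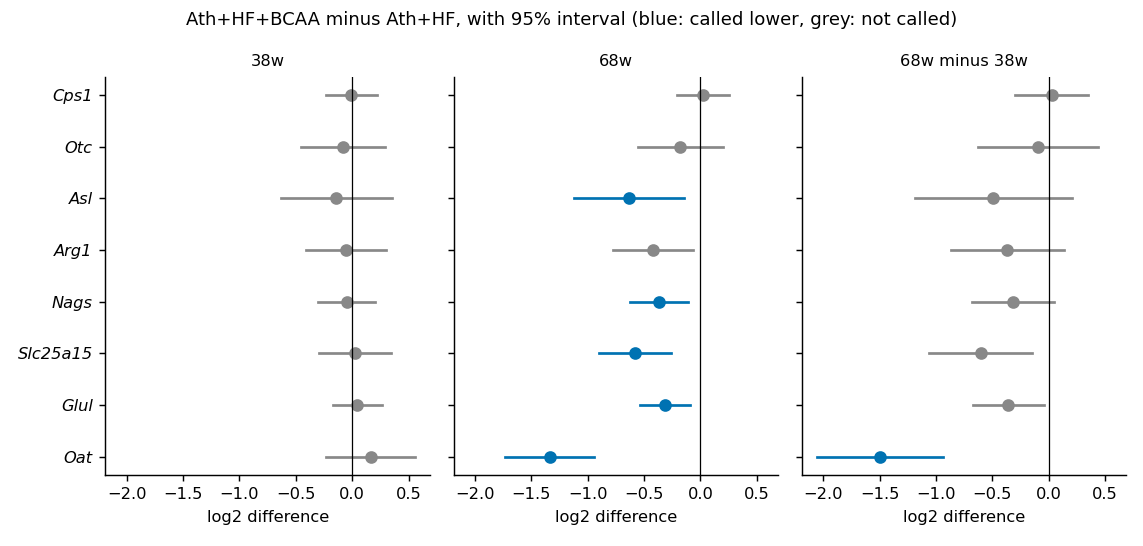
Log2 difference between Ath+HF+BCAA and Ath+HF arrays (horizontal axis) of each of the 8 genes (vertical axis) at 38w, at 68w and as the difference between the ages, with 95% confidence intervals from limma. All intervals at 38w include 0, and at 68w Oat stands at -1.34 and Cps1 at 0.02.

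The order of the group means was alike for several genes. For Otc, the 3 groups of 38w came first and overlapped, and the arrays bearing the label Ath+HF 68w followed below all of them, overlapping with those labelled Ath+HF+BCAA 68w. For Nags the 38w groups came first too, and the arrays bearing the label Ath+HF 68w, at 9.91, 9.73 and 9.75, were separate from basal above them and from Ath+HF+BCAA 68w below them. The Ath+HF+BCAA 38w arrays of Nags, at 9.98, 9.87 and 10.26, overlapped with them. For Asl, Arg1, Slc25a15, Glul and Oat, each neighbouring pair of the first 4 groups overlapped, and only Ath+HF+BCAA 68w was separate from the group above it.

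Across the 15 arrays the genes fell into different patterns, given here as a description over arrays that share their groups. The Pearson correlation was 0.92 between Asl and Arg1, 0.93 between Slc25a15 and Oat and 0.86 between Otc and Nags. That of Cps1 with the other genes ran from -0.22 (Otc) to 0.49 (Arg1). Of all genes, the most similar to Oat were Psmd12, a subunit of the proteasome lid (r = 0.98), Ugt3a2 (0.97) and Slc25a32 (0.97). The most similar to Otc were Rgn (0.97), which was one of the pericentral markers used here, Nat8f1 (0.97) and Cyp4f14 (0.97). For Nags they were Mthfd1 (0.96), Mrpl2 (0.96) and Sdf2 (0.95), and for Slc25a15, after Oat, Psmd12 (0.93) and Aass (0.92), which degrades lysine. For Asl they were Arg1, Ddx28 (0.91) and Det1 (0.91), and for Arg1, after Asl, Hoxd3 (0.88) and Cth (0.86). Cps1 was followed most closely by Slc7a2 (0.84), an arginine and lysine transporter, Slc37a4 (0.80) and Ctsl (0.78), and Glul by Mug1 (0.91), F5 (0.90) and Il6st (0.89).

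Genes around the cycle were described by lists, whose counts stand beside those of all genes. With the label Ath+HF+BCAA 68w, 21.8% of all genes were called lower and 22.9% higher than basal, and 16.4% lower and 19.8% higher than with the label Ath+HF 68w. Most enzymes of amino acid degradation were lower in the arrays bearing the label Ath+HF+BCAA 68w. Of 22 genes, 15 were lower than basal and 0 higher, with a median log2 difference of -0.56 against 0.01 over all genes. Against Ath+HF 68w, 15 were lower and 1 higher, with a median of -0.45 against -0.09, and with quantile normalization 11 were lower and 1 higher. Agxt, which detoxifies glyoxylate, fell by 1.55 on the log2 scale against Ath+HF 68w (standard error 0.15, limma adjusted p = 9.75e-07), Kynu of tryptophan degradation by 1.16 (standard error 0.12), Amt of the glycine cleavage system by 1.06 (standard error 0.13) and Cbs of the transsulfuration pathway by 0.82 (standard error 0.12). In the Ath+HF 68w arrays 4 of the 22 (18.2%) were lower than basal, near the 19.1% of all genes, and 2 were higher, where 19.0% of all genes were. The count of lower genes ran from 2, without basal replicate 2, to 5 with single arrays left out. Among the genes called were Shmt1 (-0.53, standard error 0.12), Agxt2 (-0.43, standard error 0.09), Fah (0.39, standard error 0.08) and Hpd (0.34, standard error 0.10). At 38w, 0 of 22 were called against basal without BCAA and 1, Agxt2 (0.44), was higher than basal with it. Between these 2 diets at 38w, 0 of the 22 were called, where 0% of all genes were called.

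Among the direct partners of the cycle, calls were made in both directions. Of 14 genes, 6 were lower (42.9%, against 21.8% of all genes) and 2 higher (14.3%, against 22.9%) than basal with the label Ath+HF+BCAA 68w (median -0.27). Against the label Ath+HF 68w, 5 were lower (35.7%, against 16.4%) and 2 higher (14.3%, against 19.8%), with a median of -0.26. Slc25a13, the citrin carrier that exports aspartate from mitochondria, fell by 0.996 on the log2 scale between these 68w groups (standard error 0.11, limma adjusted p = 3.12e-06). Sirt3, a mitochondrial deacetylase, fell by 0.59 (standard error 0.09), and Aqp9, a channel for urea and glycerol, fell by 0.36 (standard error 0.09). Arg2, the mitochondrial arginase, which macrophages also express, rose by 1.73 on the log2 scale (standard error 0.19, adjusted p = 3.12e-06). With the label Ath+HF 68w, 5 of the 14 genes were lower than basal (35.7%, against 19.1% of all genes) and 1 was higher (7.14%, against 19.0%). The median was 0.05, against 0.05 over all genes. In these arrays the mitochondrial carbonic anhydrases Car5a (-0.94, standard error 0.22) and Car5b (-0.83, standard error 0.20) and Glud1 (-0.40, standard error 0.11) were lower than basal. The arginine transporter Slc7a1 was higher (0.54, standard error 0.11). Against Ath+HF 38w, these arrays were higher in Slc25a13 (0.39, standard error 0.11) and lower in Arg2 (-0.99, standard error 0.19), whose mean log2 signal in them was 5.84.

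With the label Ath+HF+BCAA 68w, genes of glutamine, glutamate and ammonia transport were called against basal in shares near those of all genes. Their list also holds aminotransferases and asparagine synthetase. With the label Ath+HF+BCAA 68w, 4 of 14 genes were higher (28.6%, against 22.9% of all genes) and 3 lower (21.4%, against 21.8%) than basal (median 0.02, but -0.19 with array medians set equal), and 3 were higher (21.4%, against 19.8%) and 4 lower (28.6%, against 16.4%) than with the label Ath+HF 68w (median -0.11). Between the 68w groups, the neutral amino acid carriers Slc1a4 (1.84, standard error 0.17), Slc38a1 (1.604, standard error 0.16) and Slc1a5 (0.78, standard error 0.11) were higher with the label Ath+HF+BCAA 68w on the log2 scale. Slc25a22, a mitochondrial glutamate carrier, was lower (-1.44, standard error 0.22). In the Ath+HF 68w arrays, 5 of the 14 genes were higher than basal (35.7%, against 19.0% of all genes) and 1 was lower (7.14%, against 19.1%). Among the higher ones were Slc25a22 (0.95, standard error 0.22) and Slc1a5 (0.44, standard error 0.11). Against Ath+HF 38w, the Ath+HF 68w arrays were lower in Slc38a1 (-0.97, standard error 0.16). Rhbg, the ammonia channel of pericentral hepatocytes, fell by 1.36 on the log2 scale in the Ath+HF 68w arrays against basal (standard error 0.18, limma adjusted p = 6.76e-05).

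Genes that use ornithine, arginine and proline were divided too. Of 13 genes, 6 were higher (46.2%, against 22.9% of all genes) and 5 lower (38.5%, against 21.8%) than basal with the label Ath+HF+BCAA 68w, and the median of 0.17 became -0.04 with array medians set equal. Gatm, which starts creatine synthesis from arginine, was higher by 2.04 on the log2 scale than with the label Ath+HF 68w (standard error 0.17, limma adjusted p = 1.81e-07), and lower by 0.78 in the latter than in basal. Agmat and Prodh2 were lower with the label Ath+HF+BCAA 68w than with Ath+HF 68w, at log2 differences of -1.20 (standard error 0.13) and -1.24 (standard error 0.17), and Sat1, which acetylates polyamines, was higher by 0.85 (standard error 0.13). In the Ath+HF 68w arrays Agmat was higher than basal (0.49, standard error 0.13), and Sat1 was lower than in Ath+HF 38w (-0.72, standard error 0.13). Aldh18a1, which makes the same semialdehyde as OAT but from glutamate, was higher than basal by 1.04 (standard error 0.16) with the label Ath+HF+BCAA 68w and by 0.62 (standard error 0.16) at 38w with BCAA. Between the Ath+HF+BCAA 38w and Ath+HF 38w arrays, 0 of the 13 genes were called, where 0% of all genes were called.

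The regulators of the cycle were called in shares near those of all genes against basal. Of 14 regulators, 4 were lower (28.6%, against 21.8% of all genes) and 3 higher (21.4%, against 22.9%) than basal with the label Ath+HF+BCAA 68w. Against the label Ath+HF 68w, 5 were lower (35.7%, against 16.4%) and 3 higher (21.4%, against 19.8%), and without replicate 1 of Ath+HF 68w 3 were lower. Between the 68w groups Gcgr, the glucagon receptor, fell by 0.93 (standard error 0.09) and Creb3l3 by 0.80 (standard error 0.13) on the log2 scale. Ctnnb1, which encodes beta-catenin of the Wnt pathway, was higher by 0.64 (standard error 0.08), and Nr3c1, the glucocorticoid receptor, by 0.51 (standard error 0.10). Both were lower in the Ath+HF 68w arrays than in basal, Ctnnb1 at a log2 difference of -0.32 (standard error 0.08) and Nr3c1 at -0.57 (standard error 0.10). Gcgr was higher in the Ath+HF 68w arrays than in basal, by 0.43 (standard error 0.09).

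**Figure D5:**
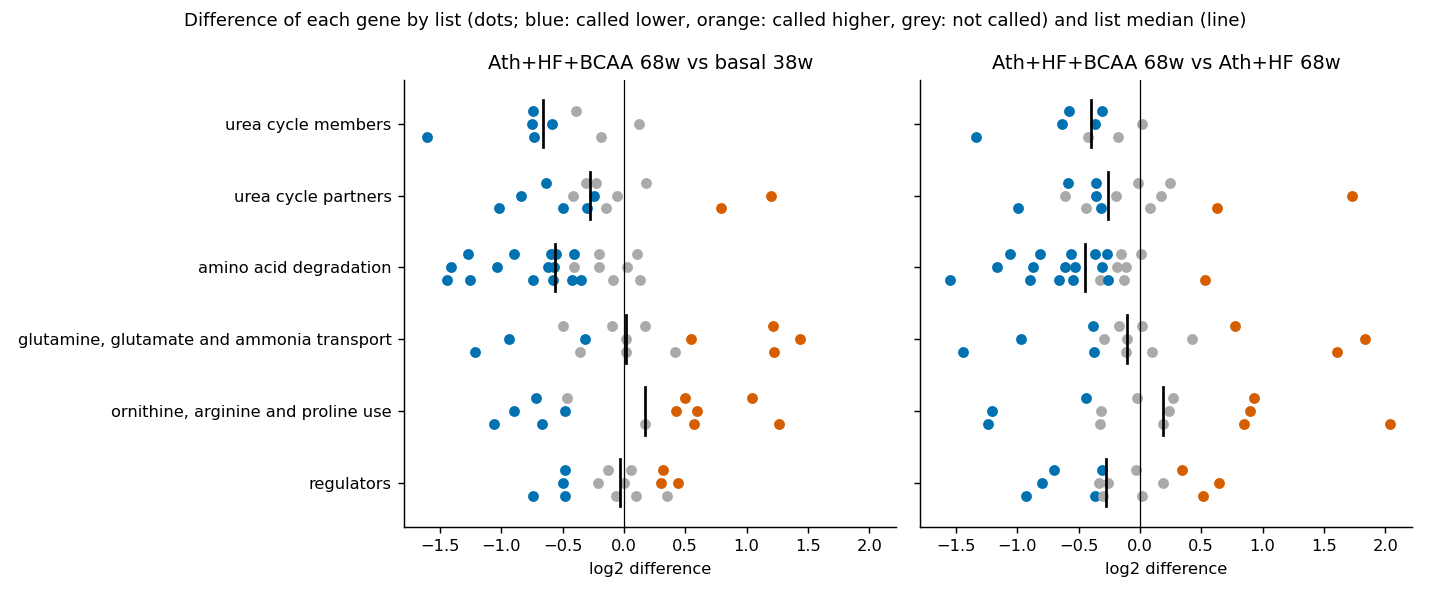
Log2 difference (horizontal axis) of each gene (dots) in the arrays bearing the label Ath+HF+BCAA 68w from basal 38w and from Ath+HF 68w, by list (vertical axis), with the median of each list (line). For the urea cycle genes the medians were -0.66 and -0.40 and for amino acid degradation -0.56 and -0.45, with 5 of 8 and 15 of 22 genes called lower in each comparison.

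Zonal markers of hepatocytes were called in both directions. Of 13 pericentral markers, 6 were lower (46.2%, against 21.8% of all genes) and 3 higher (23.1%, against 22.9%) than basal with the label Ath+HF+BCAA 68w. Of 8 periportal markers 2 were lower and 2 higher (25.0% each), near the shares of all genes. Tbx3 fell by 0.94 (standard error 0.13), Rgn by 1.67 (standard error 0.23) and Lgr5 by 1.02 (standard error 0.18) on the log2 scale, whereas Cyp1a2, also pericentral, was higher by 1.14 (standard error 0.18). Of the periportal markers, Cdh1, which bile duct cells express too, was higher by 1.87 (standard error 0.19) and Hsd17b13 was lower by a log2 difference of -0.65 (standard error 0.10). Hepatocyte markers of all zones changed less, with 1 of 9 lower (Apoh, -0.43, standard error 0.09) and 2 higher (Trf, 0.23, and Ahsg, 0.22), and a median of -0.14. With array medians set equal, 6 of the 9 were lower and 0 higher, with a median of -0.35. Of the other cell types, where 22.9% of all genes were higher than basal, 11 of 13 macrophage, 7 of 8 stellate cell and fibroblast, 4 of 5 cholangiocyte, 3 of 5 endothelial and 4 of 6 neutrophil markers were higher. The stellate cell marker Lrat (-0.52, standard error 0.16) and the endothelial marker Tek (-0.47, standard error 0.16) were lower. The neutrophil count ran from 1, without basal replicate 2, to 5 with single arrays left out. Against Ath+HF 68w, where 19.8% of all genes were higher, the counts of higher markers were 11, 7, 4, 4 and 3, and 0 were lower.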

How the data were processed

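The 15 arrays (GeneChip Mouse Gene 1.0 ST) were assigned to their 5 groups from the labels alone. Before deposition, the authors turned the scans of liver RNA into log2 values by RMA in Affymetrix Expression Console (version: not given in the sources used here), with background correction, quantile normalization and summarization of probes. RMA pulls low signals towards the background, so changes of dim genes are understated. The 10 genes and 13 further gene lists were chosen with earlier results of these data known.

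Of 35556 transcript clusters, 21789 carried 1 symbol, 1621 several and 12146 none in the platform annotation used, and 21698 had an Entrez ID found in the RefSeq gene table. The cluster with the highest mean stood for each of 19938 genes, and clusters with several symbols were left out. limma (version 3.58.1, R 4.3.3) was fitted with lmFit and eBayes, 1 coefficient per group over all arrays (10 residual degrees of freedom). From this fit 9 comparisons were drawn, each adjusted by Benjamini-Hochberg over all genes. The fit was checked on simulated data in which 200 genes were changed. Arrays correlated at 0.935 to 0.995 over all genes, and no 2 had identical values.

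All listed genes are named, together with genes of the further lists that were called and among the 4 with the smallest p of their list in a comparison (some of these are given by their counts alone), and the 3 genes with the highest correlation to each measured gene. The alternatives tried were 2 other scalings (equal array medians, and quantile normalization applied again), averaging all clusters of a gene, dropping dim genes, a robust fit with a variance trend, weighting of arrays, blocking on the replicate number, fitting just the compared groups, the methods' one-way analysis of variance with Bonferroni adjustment over pairs of groups, the study's limits (a fold over 1.5 and p under 0.005), and 15 fits that each left out 1 array. Use of the other cluster of Glul was an alternative chosen after seeing the data. Motifs were searched on both strands of the RefSeq promoter windows (GRCm38.p6). Figures were drawn with matplotlib (version 3.10.9, Python 3.11.15).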

Additional observations from a re-analysis of the deposited data

Results flagged for a closer look

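The difference between the arrays labelled Ath+HF+BCAA and Ath+HF was not the same at both ages for Oat. It was 0.16 at 38w and -1.34 at 68w on the log2 scale, and the interaction term was -1.50 (standard error 0.26, limma adjusted p = 7.11e-04). All 3 arrays labelled Ath+HF+BCAA 68w were below the 12 others. In the same arrays the mean of the 13 macrophage markers was between 10.54 and 10.85, against 8.20 to 8.35 with the label Ath+HF 68w, and its part in the result was not tested.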

How the results depend on the processing

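Directions of called genes did not reverse under any alternative. Of 1729 values of single genes under the alternatives, 1631 kept their side of the threshold, 37 newly passed and 61 were lost, and 66 differences that were not called changed sign. The number of the 8 genes called moved as follows. For Ath+HF 38w against basal it was 0, and 1 with quantile normalization, without dim genes, with a variance trend and with the methods' test with Bonferroni adjustment. For Ath+HF+BCAA 38w against basal it was 1, and 0 with equal medians, array weights, the groups alone and the study's limits, and 0 to 1 with single arrays left out. For Ath+HF 68w against basal it was 1, and 0 with the groups alone, the methods' test and the study's limits, and 0 to 1 with single arrays left out. Against Ath+HF 38w it was 1, with 2 for the mean of clusters, without dim genes and with array weights, 0 with the methods' test, and 1 to 2 with single arrays left out. For Ath+HF+BCAA 68w against its 38w group it was 7, with 4 at the study's limits and 5 to 7 with single arrays left out, and against basal it was 5, with 7 for equal medians and 4 to 6 with single arrays left out. Between the 68w groups it was 5, with 3 for quantile normalization, 1 with the methods' test and at the study's limits, and 2 to 6 with single arrays left out. For the interaction it was 1, with 4 for equal medians, 2 for the mean of clusters, without dim genes and with a variance trend, 3 with array weights, and 1 to 2 with single arrays left out. The methods' test was not run for the interaction. The cause of these shifts was not tested.

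The labels give nothing beyond a replicate number, and whether arrays with the same number share a batch is not known. Over 30 pairs of arrays with the same number the deviations from the group means correlated at -0.16 to 0.18, with 3 pairs over 0.1, and 13 arrays of pairs correlated best with their own number. With the replicate number as a block, 0 genes instead of 1 were called for Ath+HF+BCAA 38w against basal (Glul lost), 6 instead of 7 for Ath+HF+BCAA 68w against its 38w group (Arg1 lost) and 4 instead of 5 between the 68w groups (Asl lost), and no other call changed. The signal of dim genes lies near the background and limits what can be seen there.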
